A study of Mus musculus with 2 samples.

Results

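Small RNAs of piwi-interacting RNA (piRNA) length that run antisense to protein-coding genes were examined in fetal mouse testes. The members were sequences of 24–33 nt, with miRNA and structural RNA removed, that matched without mismatch the antisense strand of transcripts of exactly 1 annotated gene, of the protein-coding type. Of the 671180 distinct sequences of this length class, 9300 were members, and they came from 3719 of the 21951 annotated protein-coding genes. They were read 8825 times in the WT library and 3278 times in the KO library, which is 0.518% and 0.302% of the reads of the class. The 2 genes D10Wsu102e and Noct were set aside by rule. Uniqueness was judged within annotated transcripts, so further copies of a sequence elsewhere in the genome were not tested.

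There were 2 libraries, both from whole testes of C57BL/6 mice at embryonic day 16.5 (E16.5) obtained by natural mating. WT testes were wild type, and KO testes carried a knockout of Hsp90α (Hsp90aa1), a heat-shock protein 90 chaperone. Each library was made from the total RNA of 20 pooled testes, so variation between animals cannot be seen, and whole testes hold somatic cells as well as germ cells. With 1 library for each genotype there was no replicate check: every interval and p-value below covers the counting of reads or sequences only and compares these libraries, not the genotypes. Reads amplified by PCR without molecular identifiers are not independent molecules either.

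The WT library held 6409305 reads and the KO library 5589326, of which 2523084 and 2561491 were miRNA. Levels are given as reads per 1000000 miRNA reads, and "KO/WT" is the quotient of the 2 levels. Fragments in the sense direction of Hsp90aa1 itself were read 2 times in WT and 10 times in KO (KO/WT 4.92, 95% interval 1.05 to 46.2). These 24–33-nt pieces of the mRNA go against the direction a deletion would give, but the deleted part of the gene is not given in the sources used here, so they do not check the labels. WT and KO below therefore mean the library labelled WT and the library labelled KO. The paralogue Hsp90ab1 had 19 and 20 sense reads, and neither gene had an antisense read. The Sertoli cell miRNA miR-202 (both arms) was read 3451 times in WT and 3667 times in KO, and the 11 mature miRNAs listed for the germ cell miR-290 cluster 1147 and 1503 times. Fewer germ cells and less RNA per cell cannot be told apart in such bulk libraries.

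piRNAs are small RNAs bound by PIWI proteins of the Argonaute family. In fetal male germ cells they guide the silencing of retrotransposons, and primary piRNAs usually begin with uracil (U1). In the ping-pong cycle a PIWI protein guided by an antisense piRNA cuts a sense transcript opposite position 10 of its guide, so the new piRNA tends to carry adenine at position 10 (A10) and the 5′ ends of the partners overlap by 10 nt. A gene antisense piRNA can therefore arise where a gene, or a transposon copy inside its untranslated region (UTR), is transcribed or read in the opposite direction.

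The most-read antisense sequences of the 10 genes with the most members' reads are shown with positions 1 and 10 in capitals, because those are the positions at which a piRNA signature would stand (T stands for U).
Zfp316: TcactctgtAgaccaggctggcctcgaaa
Cd209c: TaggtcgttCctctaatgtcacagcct
Eci2: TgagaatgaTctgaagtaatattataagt
Fam163a: TatcaactgAactactgccttagcccc
Slc38a6: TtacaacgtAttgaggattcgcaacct
Hrnr: TacctttgaGatgtagaagactccctt
Mfsd4a: TgagagtggAtctgtagtttaggctg
Mtus2: TtgtcactgAtgaatctttgcacagcct
Klhdc7a: GttagagatAtgaaccaccacacccag
Vmn2r4: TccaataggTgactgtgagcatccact

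On the GRCm38 build the Zfp316 RNA lay at chr5:143250887-143250915 on the plus strand, within the 3′UTR of a gene on the minus strand. The Cd209c RNA lay at chr8:3946407-3946433 (plus) in the 5′UTR. Those of Fam163a at chr1:156076942-156076968 (plus), Slc38a6 at chr12:73314087-73314113 (minus), Mfsd4a at chr1:132027338-132027363 (plus), Klhdc7a at chr4:139961237-139961263 (plus) and Vmn2r4 at chr3:64385236-64385262 (plus) were opposite 3′UTRs. The Hrnr RNA matched 10 places of the coding sequence (CDS), the first at chr3:93324301-93324327 (minus). Those of Eci2, at chr13:35006628-35006656 (plus), and Mtus2, at chr5:148232508-148232535 (minus), were opposite exons found only in isoforms without a CDS. Klhdc7a was the exception to a first T, and 6 of the 10 sequences carried A at position 10.

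Antisense RNAs were fewer in KO than in WT. The level was 3498 reads per 1000000 miRNA reads in WT and 1280 in KO (KO/WT 0.366, 95% Clopper-Pearson interval 0.351 to 0.381), a reduction of 63.4%. Sense RNAs specific to protein-coding genes, defined the same way on the other strand, had 59065 reads in WT and 40102 in KO (KO/WT 0.669, 0.660 to 0.677). Their 64069 sequences came from 11365 genes. The KO/WT of antisense RNAs divided by that of sense RNAs was 0.547 (0.525 to 0.571), which differed from 1 by Fisher's exact test (adjusted p = 1.4e-184 over 11 comparisons of KO/WT). This quotient does not depend on the normalization.

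The antisense reduction was close in size to that of other antisense and repeat RNAs. RNAs antisense to noncoding genes had a KO/WT of 0.398 (0.386 to 0.411) and repeat-derived RNAs, those matching transcripts of at least 10 genes, one of 0.390 (0.386 to 0.395). The members' ratio was lower than these by 0.919-fold (interval 0.874 to 0.967, adjusted p = 0.0015, Fisher's exact test) and 0.937-fold (0.899 to 0.978, adjusted p = 0.0031). The whole class of 24–33-nt RNAs had a KO/WT of 0.628. A single sequence gave 183174 of the reads of this class, both libraries together. No set of nuclear tRNAs was used, so their fragments were not removed from the class.

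Single sequences were rarely seen in both libraries. WT held 6949 of the 9300 and KO 2818, and 467 of them (5.02%) were in both. A single read was all there was of 8241 sequences (88.6%). The 44 sequences read at least 10 times gave 9.07% of WT and 8.11% of KO member reads, with a KO/WT of 0.328 (0.284 to 0.377), beside 0.375 (0.357 to 0.394) for those read once. The reduction was thus seen among the sequences read once as well as among the abundant ones.

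The members began with uracil far more often than any other base. The share of reads with U1 was 78.3% in WT (77.4 to 79.1) and 78.9% in KO (77.4 to 80.2), while uracil at the other positions up to the 24th averaged 23.7% and 23.5%. The least frequent first base was G, at 4.76% and 4.64%. In structural RNA fragments of equal length, a class of RNA not made by the piRNA pathway, 26.04% (WT) and 25.87% (KO) of reads had U1.

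Sense RNAs of protein-coding genes carried U1 less often, at 63.1% and 57.6% of reads. Counting each distinct sequence once, U1 was found in 76.7% of antisense and 70.9% of sense sequences in WT, and in 77.7% and 65.4% in KO. Both differences passed Fisher's exact test over sequences (adjusted p = 8.9e-24 and 8.8e-41 over 8 comparisons of bases), although sequences that overlap share their source. Between the libraries, the shares of antisense sequences with U1 did not pass Fisher's exact test (75.7 to 77.7% in WT and 76.1 to 79.2% in KO, adjusted p = 0.313). KO/WT was 0.368 with U1 and 0.356 without it (quotient 1.03, interval 0.937 to 1.14).

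Adenine at position 10 was also enriched over most positions, but not over all. Its share was 38.9% in WT (37.9 to 39.9) and 34.2% in KO (32.6 to 35.8), beside a mean of 26.1% and 25.6% over the other positions. Position 5 reached 36.1% in WT and 36.2% in KO, the latter above position 10. Counted by distinct sequence, A10 was 35.0% in WT and 32.6% in KO, and position 5, at 36.7% and 36.8%, was higher in both libraries. This difference of A10 between the libraries passed Fisher's exact test narrowly (adjusted p = 0.031). Sense sequences carried A10 in 27.5% and 26.3% (adjusted p = 8.0e-36 and 3.2e-12, Fisher's exact test).

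A10 was more frequent among antisense sequences without U1 than among those with it. In WT 48.9% of sequences without U1 had A10, beside 30.7% of those with U1 (adjusted p = 3.3e-39, Fisher's exact test over sequences). In KO the shares were 42.4% and 29.8% (adjusted p = 6.2e-09, Fisher's exact test). Among the sense sequences the same shares were 28.6% and 27.01% in WT, and 25.8% and 26.6% in KO, so that the contrast was small there. Reads with A10 had a lower KO/WT than the rest (0.322 against 0.394, quotient 0.816, interval 0.750 to 0.887, adjusted p = 6.4e-06, Fisher's exact test).

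Both libraries peaked at 27 nt, with 21.8% of WT and 22.9% of KO member reads. The mean length was 27.7 nt in WT and 27.5 nt in KO. KO/WT was 0.451 (0.391 to 0.519) at 25 nt and 0.289 (0.248 to 0.337) at 30 nt, the highest and lowest of the 10 lengths. Reads of 28–33 nt had a KO/WT of 0.326 and reads of 24–27 nt 0.410 (quotient 0.796, interval 0.735 to 0.863, adjusted p = 1.4e-07, Fisher's exact test). The longer reads carried A10 more often, at 44.9% against 32.3% in WT and 40.9% against 28.3% in KO. Length therefore moved together with A10, and the share of each in the difference between libraries was not tested. Sense RNAs also had a lower KO/WT at 30 nt (0.605) than at 25 nt (0.748).

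By position in the transcript, 3′UTRs held more antisense reads than any other region, 42.1% of them in WT and 37.9% in KO. Reads within exactly 1 kind of region of coding transcripts numbered 1006 in WT and 450 in KO for 5′UTRs, 1727 and 702 for CDS, and 3715 and 1242 for 3′UTRs. A further 2102 and 756 were found only opposite isoforms without a CDS, such as retained introns. The remaining 78 and 37 reads crossed a region boundary, and 197 and 91 fell in different regions of different isoforms.

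5′UTRs and 3′UTRs held more antisense reads than their length. Lengths were those of the longest coding transcript of each gene, whereas reads were placed on every isoform, so these sets differ. Among reads placed in 1 region, 5′UTRs took 15.6% in WT and 18.8% in KO of the reads but 7.38% of this length. CDS took 26.8% and 29.3% with 48.2% of the length, and 3′UTRs 57.6% and 51.9% with 44.5%. Per megabase of region, WT had 190 antisense reads in 5′UTRs, 50.0 in CDS and 117 in 3′UTRs. On the sense strand of the same regions WT had 640, 513 and 945 reads per megabase. By this measure the 5′UTR was the densest region for antisense RNAs and the 3′UTR for sense RNAs. The density on a single set of isoforms was not tested. The order of the regions on each strand was the same in KO.

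The 3 regions differed in both A10 and KO/WT. In WT 47.9% of 3′UTR reads carried A10, beside 23.9% in 5′UTRs and 27.7% in CDS, whereas U1 was 77.6%, 82.3% and 81.2%. KO/WT was 0.329 (0.309 to 0.351) in 3′UTRs, lower than in CDS (0.400, 0.366 to 0.437, adjusted p = 7.6e-04) and in 5′UTRs (0.441, 0.393 to 0.493, adjusted p = 2.4e-05, both by Fisher's exact test). 5′UTRs and CDS were not distinguished (quotient 1.10, interval 0.955 to 1.27, adjusted p = 0.211, Fisher's exact test). On the sense strand KO/WT was 0.632 in 3′UTRs, 0.738 in CDS and 0.724 in 5′UTRs.

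Part of the members shared short stretches with many genes, as copies of a repeat would. Of the 9300 sequences, 2006 held a 16-nt stretch found in the transcripts of at least 10 genes. They gave 26.8% of WT and 23.4% of KO member reads, carried A10 in 55.4% and 47.2% of reads, and had a KO/WT of 0.320 (0.295 to 0.347). The rest had A10 in 32.9% and 30.2% and a KO/WT of 0.383 (0.365 to 0.401), higher than that of the repeat-sharing members (adjusted p = 3.1e-04, Fisher's exact test). At the other end, the 2495 sequences with no 16-nt stretch found in another gene had U1 in 83.8% of WT reads and a KO/WT of 0.407 (0.375 to 0.441). The antisense reduction was therefore present with and without repeat-like letters.

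The clearest case of repeat-like letters was Zfp316, a zinc finger gene. Its 3′UTR had 300 antisense reads in WT and 82 in KO, and 350 of its 383 antisense reads were the single 29-nt sequence printed above (273 in WT, 77 in KO). That RNA resembles a B1 SINE, a short interspersed retrotransposon, and shared a 16-nt stretch with 2460 genes, but no repeat library was used to class it. A 29-nt RNA antisense to the 3′UTR of Aph1c, a subunit gene of the gamma-secretase complex, differed from it at 1 base, C25T (Zfp316 base first, position from 1 at the 5′ end). It was read 18 times in WT and 4 times in KO. These are shown together because 1 base decided to which gene the reads were given.
Zfp316: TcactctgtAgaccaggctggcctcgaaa
Aph1c: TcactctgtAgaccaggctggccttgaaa

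Reads were spread thinly over genes. Of the 3719 member genes, 2165 had a single antisense read, 1381 had 2 to 9, and 173 had at least 10. Those 173 genes held 44.6% of the members' reads, and the 10 genes with the most reads 14.7%. Sense reads were also found for 2803 of the member genes (75.4%). Of all 21951 annotated protein-coding genes, 11365 had sense reads.

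Among the 75 genes with at least 20 antisense reads, 64 had a KO/WT below 0.5 and 0 had one above 2. Over all 1023 genes tested by strand with at least 20 reads, 50.2% were below 0.5 and 1.17% above 2, and over the 653 sense entries of protein-coding genes 38.9% were below 0.5. The median KO/WT was 0.363 for the 75 genes, 0.492 over all entries and 0.606 for sense entries. The 95% interval lay below 1 for 58 of the 75 and above 1 for none. Antisense reads outnumbered sense reads in 59 of the 75 genes, and 7 had no sense read. The 75 were chosen by their antisense reads alone, which favours such an excess. Over all protein-coding genes sense reads were the more numerous. At least 50% of reads began with U in 67 of them. As the main place of their reads, 39 genes had the 3′UTR, 20 an isoform without a CDS, 9 the CDS and 4 the 5′UTR.

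After Zfp316, the gene with the most antisense reads was Cd209c, a C-type lectin gene of the DC-SIGN family. It had 139 reads in WT and 65 in KO (KO/WT 0.461, 0.338 to 0.623), of which 130 and 64 were opposite its 5′UTR. U1 was carried by 91.2% of its reads and A10 by 6.86%, so its antisense RNAs had one of the 2 marks and nearly lacked the other. Its most-read sequence was read 25 times in WT and 28 times in KO. Other 5′UTR genes were Tc2n, with 17 and 14 reads, and Bglap3, an osteocalcin-related gene, with 14 and 10. The intervals of KO/WT for Tc2n (0.370 to 1.75) and Bglap3 (0.280 to 1.70) include 1.

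Eci2, which encodes an enoyl-CoA isomerase of fatty acid oxidation, had 152 antisense reads in WT and 43 in KO (KO/WT 0.279, 0.194 to 0.393), all in an isoform without a CDS. Fam163a had 152 and 39 (0.253, 0.173 to 0.361), mainly opposite its 3′UTR. Each of these came from 112 different sequences. Sense reads of the same genes were also lower in KO, from 109 to 33 for Eci2 and from 38 to 7 for Fam163a. Slc38a6, an amino acid transporter gene, had 125 and 62 antisense reads (0.489, 0.354 to 0.668), all opposite the 3′UTR, with A10 in 55.1%.

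Hrnr, which encodes the epidermal barrier protein hornerin, was the leading CDS gene. It had 128 antisense reads in WT and 34 in KO (KO/WT 0.262, 0.174 to 0.384) and 1 sense read in WT. Its CDS is made of tandem repeats, and 160 of the 162 antisense reads matched several places in it. U1 was carried by 84.6% and A10 by 17.9%. At the first place that each matched, all of the Hrnr reads lay inside Gm37245, a lincRNA annotated on the strand of the reads. Their other places were not checked for this. The related gene Flg, filaggrin, had 32 and 18 antisense reads and no sense read. Dnah1, an axonemal dynein heavy chain gene, had 40 and 14 reads opposite its CDS, all inside the antisense gene Gm35823.

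Mfsd4a, of the major facilitator superfamily of transporters, had 126 reads in WT and 21 in KO (KO/WT 0.164, 0.0982 to 0.262) and 3 sense reads in all. Its 147 antisense reads lay inside the gene Elk4, an ETS transcription factor gene on the opposite strand. By position the same reads run in the sense direction of unspliced Elk4 RNA, while they count here as antisense to Mfsd4a exons. U1 was carried by 87.8% of them and A10 by 20.4%. Over all members, each placed at its first match, 9.76% of WT and 9.24% of KO reads lay inside a gene of their own strand. The KO/WT of these reads was 0.347 (0.303 to 0.396), beside 0.368 (0.353 to 0.384) for the rest.

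Further genes among the 20 with the most reads were also read less often in KO. Mtus2, a microtubule-associated gene, had 89 reads in WT and 23 in KO, and the kelch gene Klhdc7a 78 and 21. Slc38a1, another amino acid transporter gene, had 47 and 19, and Pvr, a nectin-like adhesion receptor gene, 47 and 16. Zfp773 had 42 and 19 and Ift80, an intraflagellar transport gene, 45 and 15. Kcnh6, a potassium channel gene of the ERG family, had 35 and 20, and its interval (0.308 to 1.002) reached 1. All of these had U1 in at least 69.7% of their reads. A 16-nt stretch found in at least 10 genes was present in 98.3% of the Ift80 and 59.0% of the Zfp773 reads. For the others named here it was present in at most 19.0%.

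Ms4a6d had 45 antisense reads in WT and 18 in KO, and one of its sequences nearly equalled one of Tc2n. The sequences are shown because the pair differed at position 10 itself, by T10C, and at A28G (Tc2n base first).
Tc2n: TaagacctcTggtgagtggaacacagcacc
Ms4a6d: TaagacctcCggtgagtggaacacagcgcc
The Tc2n RNA was read 12 times in WT and 13 times in KO and the Ms4a6d RNA 12 and 6 times. Over the whole of these genes A10 was found in 0 of 31 reads for Tc2n and in 4.76% of reads for Ms4a6d. A 16-nt stretch found in at least 10 genes was present in 100% of the Tc2n and 93.7% of the Ms4a6d reads.

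Receptor genes of the olfactory system made up 218 of the member genes, out of 1466 such genes annotated. Of the 122 Vmn2r vomeronasal receptor genes, 47 (38.5%) had antisense reads, as did 45 of 209 Vmn1r genes (21.5%) and 126 of 1135 olfactory receptor (Olfr) genes (11.1%). The share over all protein-coding genes was 16.9%. Their KO/WT was 0.336 (0.277 to 0.405) for Vmn2r, 0.358 (0.259 to 0.489) for Vmn1r and 0.262 (0.213 to 0.321) for Olfr. Together they had 1049 antisense reads in WT and 327 in KO, beside 994 and 327 sense reads, so that the strands were near even, whereas sense reads outnumbered antisense reads over all genes. These families were picked after their values were seen.

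Within the Vmn2r family, Vmn2r4 had 69 reads in WT and 30 in KO, Vmn2r83 50 and 19, and Vmn2r97 41 and 18. Vmn2r4 and Vmn2r83 had no sense read, and Vmn2r97 had 154 and 70. U1 was carried by 47.5% of the Vmn2r4 reads, 84.1% of the Vmn2r83 reads and 50.8% of the Vmn2r97 reads, and A10 by 24.2%, 81.2% and 44.1%. A 16-nt stretch found in at least 10 genes was present in 73.7% of the Vmn2r4, 0% of the Vmn2r83 and 11.9% of the Vmn2r97 reads. Close paralogues share sequence in such families, and only sequences specific to 1 gene were counted.

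The genes that were not lower in KO were few. Of the 75 genes, 3 had a KO/WT above 1, and the interval of each included 1. They were Hes7, a transcriptional repressor of the segmentation clock, with 12 reads in WT and 15 in KO, the chemokine receptor gene Ccr9 with 10 and 12, and mt-Nd5, a mitochondrial gene for a subunit of respiratory complex I, with 32 and 36. U1 was carried by 11.1% of the Hes7 reads and 36.8% of the mt-Nd5 reads, but by 90.9% of the Ccr9 reads. Over the 8 genes with U1 below 50%, 6 had a KO/WT below 0.5, so a low U1 share did not go with an unchanged level in all of them. A10 was carried by 3.70% of the Hes7 and 20.6% of the mt-Nd5 reads. In those 6 genes A10 ranged from 24.2% (Vmn2r4) to 79.4% (Gm42669), and its part in this was not tested.

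Mitochondrial genes together had a higher KO/WT than the rest, and most of their reads were of mt-Nd5. Antisense reads of 7 of the 13 mitochondrial protein-coding genes numbered 57 in WT and 53 in KO (KO/WT 0.916, 0.618 to 1.36), while the other members had a KO/WT of 0.362. The quotient was 2.53 (1.74 to 3.68, adjusted p = 6.4e-06, Fisher's exact test). Of these 110 reads 68 were of mt-Nd5. The other 6 genes had 25 in WT and 17 in KO (KO/WT 0.670, 0.339 to 1.29), and their quotient to the rest of 1.85 (0.997 to 3.43) did not pass the test (p = 0.0552, Fisher's exact test, a setting chosen after seeing the data). U1 was 33.3% and 43.4% among the mitochondrial reads. The genes were grouped by their location, and their reads made up 0.646% of WT and 1.62% of KO member reads.

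At the other extreme, Gm10800, a predicted gene, had 39 antisense reads in WT and none in KO. Taking 3 reads as the upper limit that a count of 0 in the KO library allows, its level was at least 13.2-fold lower in KO, a bound that takes the 39 WT reads as exact. The exact interval of its KO/WT, which counts the error of both libraries, reached up to 0.0977. A 16-nt stretch found in at least 10 genes was present in 89.7% of its reads, U1 in 35.9% and A10 in 66.7%. Zdhhc14, a palmitoyltransferase gene, had 20 reads in WT and 1 in KO (KO/WT 0.0493, 0.00119 to 0.308). Both genes were named after their values were seen.

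Genes of the piRNA pathway and related lists had few antisense reads each, as did most member genes. The share of all protein-coding genes with an antisense read was 16.9%. Of 26 piRNA pathway genes, Exd1 alone (3.85%) had any, with 3 in WT and none in KO, although 23 of the 26 had sense reads, 92 in WT and 73 in KO. Of 10 HSP90 and co-chaperone genes 2 (20.0%) had any: Cdc37 had 1 and 0 and Fkbp5 1 and 1. Of 8 DNA methylation genes, 3 (37.5%) had reads, with 4 in WT and none in KO in all. For a gene with no read, the upper limit that a count of 0 allows, 3 reads, is 0.0340% of the WT and 0.0915% of the KO member reads.

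Marker genes of the cell types of the testis also had few reads each. Antisense reads were found for 4 of 12 germ cell genes (33.3%), 2 of 7 Sertoli cell genes (28.6%), 1 of 6 Leydig cell genes (16.7%), 2 of 8 interstitial and vascular genes (25%) and 0 of 6 blood genes, beside the 16.9% of all protein-coding genes. Nanos2, an RNA-binding protein gene of male germ cells, had the most of them, with 6 in WT and 4 in KO (KO/WT 0.657, 0.136 to 2.77). Its 10 reads were all opposite the 3′UTR, none of its sequences was read more than once, and it had no sense read.

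Pairs of antisense and sense RNAs that met at their 5′ ends were sought next, since a 10-nt overlap is the mark of ping-pong. Overlaps of 1 to 30 nt between antisense and sense 5′ ends of the same gene were counted. With each distinct 5′ end counted once, 10 nt was the most frequent overlap in both libraries, with 7.13% of 1235 pairs in WT and 7.49% of 267 in KO. The other overlaps averaged 3.20% and 3.19%, and the next most frequent were 29 nt in WT (5.02%) and 27 nt in KO (7.12%). The margin in KO was thus small.

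Weighted by reads, the pattern rested on few genes. The 10-nt overlap took 11.4% of read pairs in WT and 15.0% in KO, but in WT the 26-nt overlap took 12.3%, of which 66.4% came from the single gene Tmco3. Olfr784 gave 48.4% of the 10-nt read pairs in WT and 65.4% in KO. Without it the share was 7.43% in WT and 6.73% in KO. Pairs with a 10-nt overlap were found in 55 genes in WT and 14 in KO. Of the antisense reads, 3.27% in WT (280 of the 8564 with a single position) and 4.09% in KO (131 of 3201) had such a partner. Among those reads A10 was 48.6% and 31.3%. Partners were sought only among sense RNAs specific to the same gene, so sense RNAs shared by several genes were not counted.

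Partner sequences of 6 genes are shown with the first 10 bases in capitals, because these are the bases that pair. In each, the capitals of the antisense sequence are the reverse complement of those of the sense sequence. They are the 6 genes with the highest product of antisense and sense reads of a pair, chosen after these were seen.
Olfr784 antisense: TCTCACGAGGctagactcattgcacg
Olfr784 sense: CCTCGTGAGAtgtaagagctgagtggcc
Kcnh6 antisense: CAGAGTTTTAtgggagagctgtctggc
Kcnh6 sense: TAAAACTCTGaaaaccattttctctgaaaa
Rab3gap1 antisense: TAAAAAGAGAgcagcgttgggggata
Rab3gap1 sense: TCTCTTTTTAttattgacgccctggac
Slc38a6 antisense: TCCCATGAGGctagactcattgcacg
Slc38a6 sense: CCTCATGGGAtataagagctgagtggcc
Cd209c antisense: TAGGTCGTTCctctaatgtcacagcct
Cd209c sense: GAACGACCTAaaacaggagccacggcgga
Klhdc7a antisense: TACAGACGTAggcacagcgagaatggag
Klhdc7a sense: TACGTCTGTAaaacaggtctgtccctgcc

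The Olfr784 antisense RNA, at chr10:129389491-129389516 (minus) opposite its 3′UTR, was read 8 times in WT and 4 times in KO, and its sense partner 23 and 10 times. The Slc38a6 pair, with antisense RNA at chr12:73311687-73311712 (minus), had 0 and 2 antisense and 6 and 3 sense reads. Both genes carried nearly the same pair: the antisense sequences differed by T3C and C6T and the sense sequences by G5A, A8G and G12A (Olfr784 base first). In both the antisense RNA began with U, so its sense partner carried A at position 10. The Cd209c pair paired the 25 and 28 antisense reads named above with 1 sense read in WT and none in KO. In Klhdc7a the antisense RNA, at chr4:139960974-139961001 (plus), was read 4 times in WT and not in KO, and its partner 4 times and once. Both Klhdc7a sequences had U1 and A10.

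In the Kcnh6 and Rab3gap1 pairs the sense RNA was the more abundant partner. The Kcnh6 antisense RNA, at chr11:106034146-106034172 (minus), was read 2 times in WT and not in KO, and its sense partner 8 and 9 times. There the antisense RNA began with C and carried A10, the complement of the U that began the sense RNA. The Rab3gap1 antisense RNA, at chr1:127876478-127876503 (minus), had 1 read in WT and none in KO, and its partner 18 and 4. Both Rab3gap1 sequences had U1 and A10.

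Antisense RNAs lay end to end about as often as at other distances. When the distances from the 3′ end of 1 antisense RNA to the 5′ end of the next on the same strand were counted up to 50 nt, the distance of 1 nt took 2.06% of 1119 pairs in WT and 1.94% of 206 in KO, beside means of 1.999% and 2.001% at the other distances. The most frequent distances were 39 nt in WT (2.86%) and 14 nt in KO (4.85%).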

How the data were processed

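Small RNA was sequenced from 1 WT and 1 KO library. The authors clipped adaptors and deposited for each library a list of distinct sequences (11 to 48 nt) with their raw counts of reads, unmapped and not normalized. The study mapped its reads separately (genome build mm9 per the submitters' processing notes), and that mapping was not used here. GENCODE M21 (GRCm38, 141767 transcripts) was searched in both directions for perfect matches of sequences of 16 nt or longer. No genome sequence, repeat library or set of nuclear tRNAs was used. Sense matches to 2202 miRNA hairpins counted as miRNA, and structural RNAs were removed. UTR and CDS boundaries came from the annotation of every isoform. Region lengths came from the longest coding transcript of each protein-coding gene.

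Levels were scaled to miRNA reads, the scale of the study. Intervals of KO/WT were 95% Clopper-Pearson intervals, and intervals of shares were 95% Wilson intervals. Intervals of a quotient of ratios used the normal approximation of the log odds ratio. Fisher's exact tests were two-sided and compared these libraries only, with Benjamini-Hochberg adjustment over 11 ratio comparisons (reads) and 8 base comparisons (distinct sequences). Fold calls (below 0.5, above 2) needed 20 reads and no test. Named genes were the 20 with the most antisense reads, the 3 with the most in each region, list genes with at least 10 reads, Hsp90aa1 and Hsp90ab1, and others where said. The result of 1 gene is not reported here. Members, lists and tests were chosen with earlier results of these data known. Alternatives changed the normalization, read minimum, length range, repeat-like sequences, isoform and leading gene. The matching and intervals were tested on simulated or independently searched data (100 of 100 members recovered). The tools were scipy 1.17.1, numba 0.67.0, pandas 2.3.3 and numpy 2.4.6 under Python 3.11.15.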

Additional observations from a re-analysis of the deposited data

How the results depend on the processing

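Of 91 alternatives computed for these results, 69 counted as kept and 22 did not. Kept meant within the counting interval, on the same side of the test threshold or, for gene counts, near the same number. U1, A10 and the antisense over sense quotient were judged by the threshold only, so their values could move and still count as kept. With at least 2 reads, A10 went from 38.9% to 49.2% in WT and from 34.2% to 42.6% in KO. Without repeat-like stretches A10 was 32.9% and 30.2%. With at least 2 reads U1 was 83.0% and 84.0%, and the quotient went from 0.547 to 0.503. KO/WT of the antisense reads, 0.366, became 0.426 normalized to all reads and 0.419 normalized to structural RNA fragments, 0.383 without repeat-like 16-nt stretches, 0.399 counting each sequence once and 0.347 with at least 2 reads per sequence. The number of genes with KO/WT below 0.5, 64 of 75, became 131 of 173 with at least 10 reads and 23 of 26 with at least 50 (background 47.8% and 55.6%), and 52 with normalization to all reads (background 40.4%). The 3′UTR share of member reads, 42.1% in WT and 37.9% in KO, became 51.2% and 44.7% with at least 2 reads, 35.6% and 31.9% without repeat-like stretches, and 40.4% and 36.2% on the longest coding transcript. In WT it was 38.7% counting each sequence once and 40.1% without Zfp316. The 10-nt overlap share, 11.4% in WT and 15.0% in KO by reads, became 7.13% and 7.49% by distinct 5′ ends, 14.1% and 19.9% with at least 2 reads, and 7.43% and 6.73% without the gene with most such pairs, the last chosen after seeing the data and turning the order of the libraries. The cause was not tested. In WT it was 13.1% without repeat-like stretches. Leaving out Lars2 (21.8% of WT and 24.5% of KO sense reads), mitochondrial genes or RNAs inside a gene of their own strand, also chosen after seeing the data, made no such change. No paired analysis was possible because each genotype had 1 library. Depth limits single genes most, since 2165 of 3719 had 1 read.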
